A study of Macaca mulatta with 6 samples.

Results

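C-type lectins, Siglecs, leukocyte immunoglobulin-like receptors (LILRs) and CD300 molecules are surface receptors by which myeloid cells read sugars, lipids and self proteins. Their genes were taken from the count table by symbol: names that begin with CLEC and a digit, SIGLEC, LILRA, LILRB or CD300, leaving out CLEC1B and CLEC10A. This gave 45 rows for 44 symbols, out of 32386 rows in all: 20 C-type lectins, 9 Siglec rows, 10 LILRs and 6 CD300 genes. SIGLEC6 was carried by 2 rows. The samples were 6 single granulocyte-macrophage colonies of rhesus macaque, 3 carrying the label wild type (WT) and 3 the label TET2 uniallelic (UA, genotype TET2+/-, with mutations predicted to abolish function). Both groups share the same history: mobilized CD34+ cells were edited with CRISPR/Cas9 and returned to the donor animal, and marrow CD34+ cells taken 15 months later were grown for 14 days in MethoCult Enriched medium. A colony is 1 clone, the WT colonies come from the same edited graft model and not from untreated animals, and the labels do not name the animals. Below, WT and UA mean the libraries so labelled. Library totals ranged from 6334264 to 25485143 counts.

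As background, these families hold activating and inhibitory members, some of which form pairs of opposite sign. Activating members signal through tyrosine motifs of their own or of the adaptors FCER1G (the Fc receptor gamma chain) and TYROBP (DAP12), which recruit the kinase SYK and, for several lectins, CARD9. Inhibitory members carry tyrosine-based inhibitory motifs (ITIMs) that recruit the phosphatases PTPN6, PTPN11 and INPP5D. C-type lectins of the Dectin groups bind fungal and mycobacterial sugars and lipids or dead cells, Siglecs bind sialic acid, LILRs bind MHC class I and other proteins, and CD300 molecules bind lipids. The roles below are those known in human, and macaque LILRs and Siglecs need not match them gene for gene.

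Several facts of the libraries bear on every value below. The labels do not say that colonies came from separate animals, and the p-values then measure no more than how these libraries vary, some of which may be technical. The UA libraries were more alike than the WT ones, with a biological coefficient of variation of 0.104 to 0.109 between UA pairs, 0.193 between WT replicates 2 and 3, and 0.336 to 0.34 between WT replicate 1 and the others. Every pair differed by more than counting noise, by a chi-square per gene of 4.25 to 5.24 in UA and 12.2 to 92.4 in WT. TET2, the edited gene, had 231 ± 6.65 CPM (counts scaled to a common library size with edgeR's TMM factors, the usual CPM unit; SD, n = 3) in UA and 93.8 ± 14.9 in WT, and since no read was assigned to the edited allele here, its level does not check the labels. Markers of granulocyte-macrophage cells were present in both groups, but cell type markers differed between them. Summed neutrophil precursor markers were 24392 to 25239 CPM in UA and 1207 to 1322 CPM in WT. Summed monocyte and macrophage markers were 8045 to 8210 CPM in UA and 1664 to 2110 CPM in WT, but LYZ made up most of the UA sum. Without LYZ the direction turned, to 531 to 562 CPM in UA and 1209 to 1575 CPM in WT. CD14 made up most of that WT sum, at 965 to 1410 CPM. Of 11 of these markers tested, CD14 was the only 1 called lower, and 8 were called higher. In bulk RNA, fewer cells of a type and less RNA per cell cannot be told apart.

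Of the 45 members, 35 had a mean of 1 CPM or more in at least 1 group, where 43.9% of all rows of the table did. The number was 28 in WT and 32 in UA, with 25 in both groups, 3 in WT alone and 7 in UA alone. At a threshold of 5 CPM the numbers were 21 in either group, 15 in WT and 16 in UA. The 3 members at 1 CPM or more in WT alone were CLEC4D, CLEC4E and CLEC2D, all C-type lectins. The 7 in UA alone were CLEC1A, CLEC4C, CLEC4G, SIGLEC1, SIGLEC12, LILRA5 and the SIGLEC6 row named by symbol. CPM is not scaled by gene length, so levels are compared between libraries and not between genes.

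The question for these receptors was whether their transcripts differed between TET2-mutated and unmutated colonies. The filter on low counts passed 35 members, which are the ones tested. Under edgeR's quasi-likelihood test, 16 rose and 8 fell in UA, taking an adjusted p under 0.05 as a call. These calls are 68.6% of the members tested, where 66% of all 13768 genes tested were called, 34.6% higher and 31.4% lower. The share called is near that of all genes, so the number of calls is no result about these receptors, and what follows describes which of them moved and which way. The median log2 fold change of the members tested was 0.72, beside 0.12 for all genes. The groups did not overlap for 28 of the 35, beside 73.2% of all genes: UA lay above WT for 19 (39.2% of all genes) and below it for 9 (34% of all genes). A called log2 fold change beyond 1 in either direction was found for 23 of the 35, beside 48.8% of all genes, and one beyond 3 for 11, beside 9.36% of all genes. Passing the filter favours genes high in 1 group: 6 of the members tested were at 1 CPM or more in UA alone and 3 in WT alone. Among the 25 members at 1 CPM or more in both groups, 10 were higher, 6 were lower and 9 were not called.

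**Figure D1:**
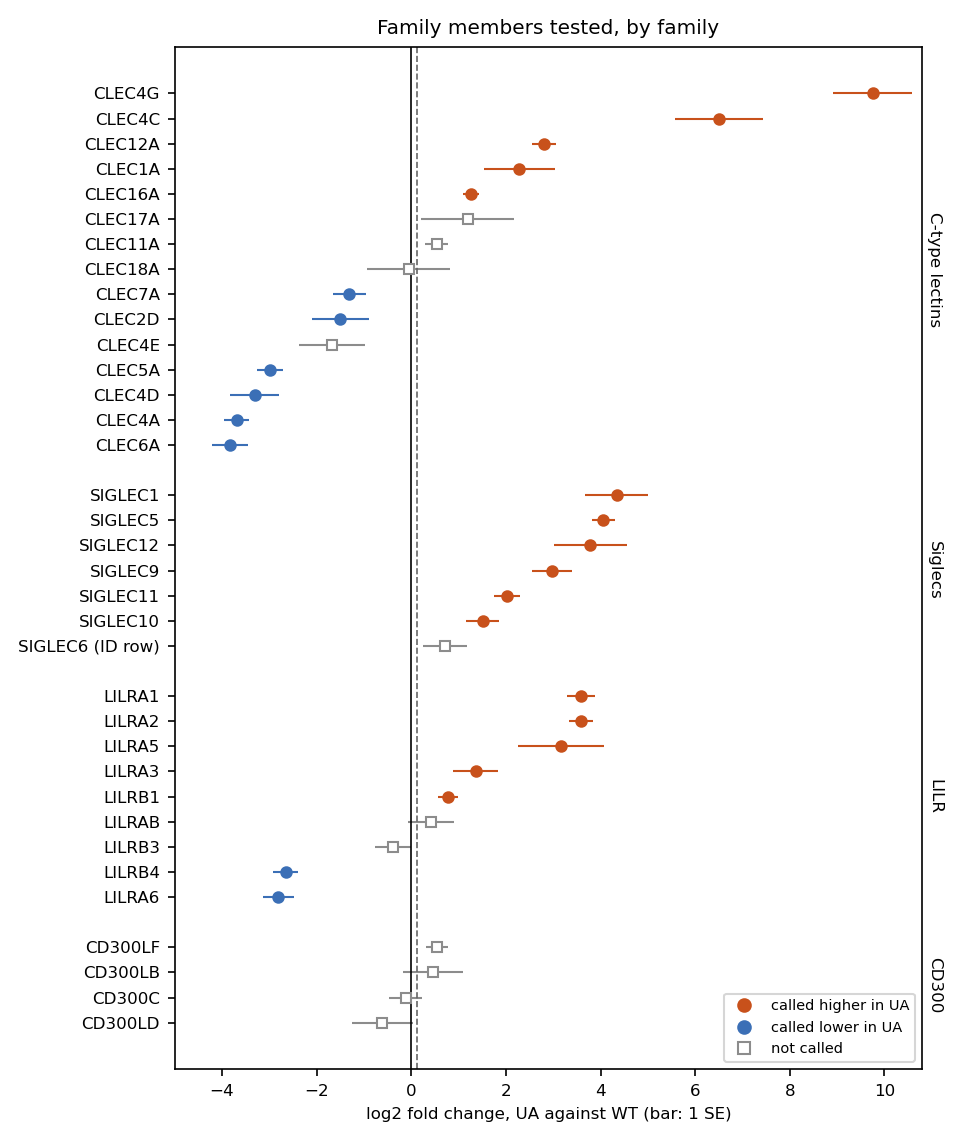
Log2 fold change of UA against WT for the 35 members tested, from edgeR, by family, with bars of 1 standard error; the solid line is 0 and the dashed line is the median of all genes tested, 0.12. All 6 Siglecs called lie to the right, C-type lectins and LILRs lie on both sides, no CD300 gene is called, and the fitted values of CLEC4G and CLEC4C rest on 0 and 1 counts in WT.

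The 4 families did not share a direction. Siglecs were higher in UA in 6 of 7 tested, with a median log2 fold change of 2.98 and no member lower. C-type lectins split, with 5 of 15 higher, 6 lower and a median of -0.05. LILRs were higher in 5 of 9 tested and lower in 2, with a median of 0.78. None of the 4 CD300 genes tested was called, and their median was 0.17. Beside these tallies, 66% of all genes tested were called, 34.6% higher and 31.4% lower, and the differences between families were not tested. The tallies include members that passed the filter through 1 group. SIGLEC1, SIGLEC12, CLEC1A, CLEC4C, CLEC4G and LILRA5 were under 1 CPM in WT, and CLEC4D, CLEC4E and CLEC2D in UA. At 1 CPM or more in both groups, the Siglecs called higher were SIGLEC5, SIGLEC9, SIGLEC10 and SIGLEC11. The lectins called there were CLEC12A and CLEC16A, higher, and CLEC4A, CLEC5A, CLEC6A and CLEC7A, lower.

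**Figure D2:**
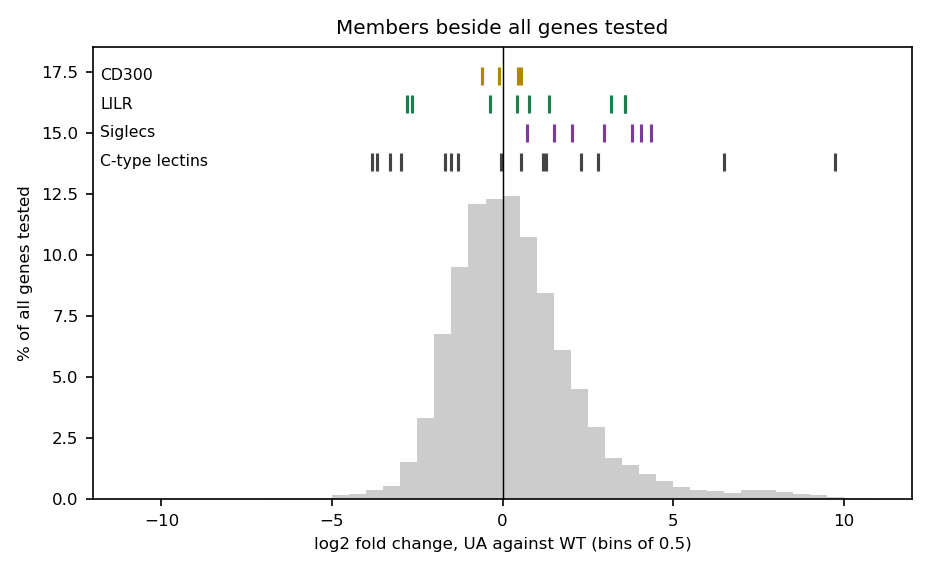
Histogram of the log2 fold changes of UA against WT for all 13768 genes tested (grey, as a percent of genes in bins of 0.5), with each member tested as a tick above it, by family. The Siglec ticks all lie above 0, the CD300 ticks sit near 0, and the lectin and LILR ticks spread over both sides.

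Of the 6 activating C-type lectins tested, CLEC6A, CLEC5A, CLEC4D and CLEC7A fell in the UA-labelled colonies, CLEC4C rose and CLEC4E was not called. CLEC6A (Dectin-2, which binds alpha-mannans and signals through FCER1G) had 41.7, 57.5 and 56.2 CPM in WT replicates 1 to 3 and 4.66, 4.42 and 1.18 CPM in UA. Every UA library lay below every WT library, at a log2 fold change of -3.83 (SE 0.37, adjusted p = 8.88e-06 by edgeR). CLEC5A (MDL-1, a TYROBP-coupled receptor) had 35.7, 65.7 and 59.0 CPM in WT and 5.69, 7.98 and 6.65 CPM in UA, and its log2 fold change came to -2.98 (SE 0.28, edgeR adjusted p = 6.66e-06). It lies on chromosome 3 from 168273748 to 168297789. CLEC4D (MCL, a partner of Mincle) had 5.30, 9.94 and 5.89 CPM in WT and 0.434, 0.769 and 1.03 CPM in UA. Its log2 fold change was -3.31 (SE 0.51, adjusted p = 0.000205 by edgeR).

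The other receptors of this kind changed less or were not called. CLEC7A (Dectin-1, the beta-glucan receptor) had 5.89, 11.5 and 9.85 CPM in WT and 3.25, 3.37 and 4.43 CPM in UA. The groups did not overlap, at a log2 fold change of -1.31 (SE 0.36, adjusted p = 0.0075 by edgeR). CLEC4E (Mincle, which binds mycobacterial cord factor) had 2.15, 1.43 and 2.11 CPM in WT and 0.217, 0.673 and 1.03 CPM in UA, and was not called (log2 fold change -1.68, edgeR adjusted p = 0.0546). With limma-voom CLEC4E passed, at a log2 fold change of -1.91 and an adjusted p of 0.0135 in a range of 0.0135 to 0.317 over its alternatives.

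CLEC4C went the other way. It encodes BDCA-2, an FCER1G-coupled receptor that marks plasmacytoid dendritic cells. CLEC4C had 1 count over the WT libraries and 108 over the UA libraries, at 3.69, 2.31 and 2.36 CPM in UA. The ratio of the scaled totals was 134, with a 95% exact counting interval of 23.6 to 5344 that covers counting error only. Without WT replicate 1 its WT count is 0. CLEC9A (DNGR-1, the dead-cell receptor of cross-presenting dendritic cells) did not pass the filter, with 8 counts in WT, all of them in replicate 1, and 19 in UA.

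**Figure D3:**
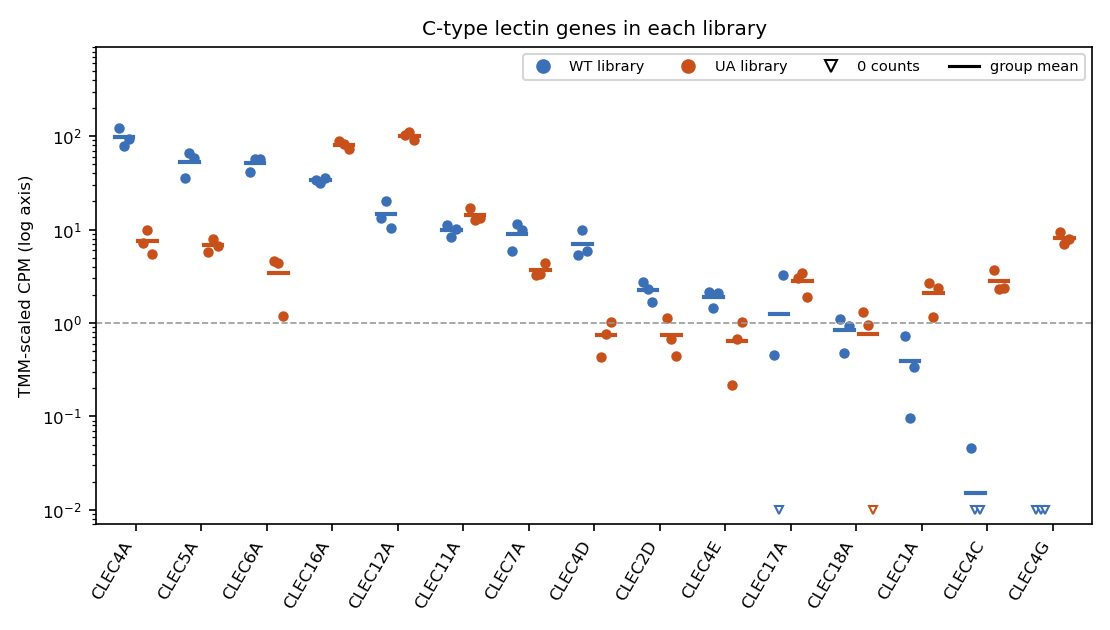
TMM-scaled CPM, on a log axis, of the 15 C-type lectins tested in each WT (blue) and UA (orange) library; short lines are group means, open triangles are libraries with 0 counts and the dashed line is 1 CPM. CLEC4A, CLEC5A, CLEC6A and CLEC4D are lower in every UA library, while CLEC12A, CLEC16A, CLEC1A, CLEC4C and CLEC4G are higher in every UA library.

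The 2 inhibitory C-type lectins tested moved in opposite directions. CLEC4A (DCIR, an ITIM receptor of monocytes and dendritic cells, on chromosome 11 from 8657005 to 8670584) had 122, 78.9 and 92.4 CPM in WT and 7.26, 9.81 and 5.46 CPM in UA. It fell by 3.69 on the log2 scale (SE 0.26, edgeR adjusted p = 1.3e-06). CLEC12A (MICL, an ITIM receptor for uric acid crystals carried by granulocytes and monocytes, on chromosome 11 from 10320007 to 10333193) had 13.4, 20.1 and 10.3 CPM in WT and 103, 109.6 and 91.1 CPM in UA. It rose by 2.80 on the log2 scale (SE 0.25, edgeR adjusted p = 4.6e-06), and no UA library came near a WT one. CLEC12B, a related ITIM receptor, did not pass the filter. Its WT total was 1 count and its UA total 22 counts, which is 27.3 times higher after scaling (95% exact interval 4.41 to 1127).

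The remaining C-type lectins have other roles. CLEC4G (LSECtin, an adhesion lectin of sinusoidal endothelium in liver and lymph node, on chromosome 19 from 7926395 to 7929339) had 0 counts in all 3 WT libraries. It had 9.32, 6.92 and 7.97 CPM in UA, or 298 counts, and was at least 123-fold higher when the WT group as a whole is set to the 3 counts that a total of 0 allows. CLEC16A (an endolysosomal protein that regulates mitophagy, not a surface lectin) had 33.5, 31.6 and 36.0 CPM in WT and 88.1, 82.4 and 73.2 CPM in UA. Its log2 fold change was 1.27 (SE 0.17, adjusted p = 6.38e-05 by edgeR).

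CLEC1A, a receptor for fungal melanin on endothelium and myeloid cells, had 0.731, 0.0956 and 0.337 CPM in WT and 2.71, 1.15 and 2.36 CPM in UA (log2 fold change 2.28, edgeR adjusted p = 0.0197). The call was lost without WT replicate 2 or 3 or UA replicate 1 or 3, at log2 fold changes of 1.89, 2.16, 2.05 and 2.22 and adjusted p of 0.0523, 0.0532, 0.0959 and 0.0642, in a range of 0.00493 to 0.231 over its alternatives. Without WT replicate 1 its log2 fold change was 3.18. CLEC2D (LLT1, the ligand of the natural killer receptor KLRB1) had 2.74, 2.29 and 1.68 CPM in WT and 1.14, 0.673 and 0.443 CPM in UA. Its log2 fold change was -1.50 (edgeR adjusted p = 0.0466), and it stayed called in 3 of 15 alternatives. Leaving out any library except WT replicate 3 lost that call, with log2 fold changes of -1.32 and -1.50 without WT replicate 1 or 2 and -1.96, -1.41 and -1.28 without UA replicate 1, 2 or 3.

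CLEC11A, a secreted growth factor of bone marrow stroma and progenitors, had 11.3, 8.41 and 10.1 CPM in WT and 17.0, 12.8 and 13.4 CPM in UA. It was not called (log2 fold change 0.53, edgeR adjusted p = 0.0788), but was called without WT replicate 1, at 0.65 and an adjusted p of 0.0351 in a range of 0.0248 to 0.343. CLEC17A (prolectin, a B cell lectin) rested on 1 library. It had 0.457, 0 and 3.28 CPM in WT and 3.04, 3.46 and 1.92 CPM in UA (log2 fold change 1.2, edgeR adjusted p = 0.302). Without WT replicate 3 it was called, at a log2 fold change of 3.32 and an adjusted p of 0.0115, in a range of 0.0115 to 0.503. CLEC18A, a secreted lectin, had a log2 fold change of -0.05 whose sign turned under library size alone and upper-quartile scaling. CLEC2A and CLEC2L had 2 counts each, all in UA, and CLEC4F had none in any library. In 1 library, 0 counts leave room for a level of 0.137 CPM at the greatest depth and 0.443 CPM at the lowest.

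The Siglecs rose in UA in every case that was called. SIGLEC5 (an ITIM receptor of neutrophils and monocytes, on chromosome 19 from 46849655 to 46887702) had 2.38, 3.35 and 2.11 CPM in WT and 42.7, 44.5 and 42.4 CPM in UA. The UA libraries lay close together and far above every WT library, at a log2 fold change of 4.06 (SE 0.25, adjusted p = 4.6e-07 by edgeR). SIGLEC5 shares nearly identical outer domains with SIGLEC14, its activating partner, for which no row carried the symbol, so reads of the pair may be counted together. The RefSeq assembly T2T-MMU8v2.0 lists SIGLEC14 but no SIGLEC5, so the name and role of this row are uncertain. SIGLEC9, an ITIM receptor of neutrophils and monocytes, had 2.15, 0.574 and 2.11 CPM in WT and 13.5, 13.9 and 12 CPM in UA. The groups were well apart, at a log2 fold change of 2.98 (SE 0.42, adjusted p = 0.000114 by edgeR).

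SIGLEC1 (CD169, a sialic acid receptor of tissue macrophages that lacks an ITIM, on chromosome 10 from 36548839 to 36566253) had 0.183, 0.765 and 0.0842 CPM in WT and 8.08, 5.77 and 5.76 CPM in UA. Its log2 fold change was 4.34 (SE 0.67, adjusted p = 0.000196 by edgeR), and 5.41 without WT replicate 2. The row named SIGLEC11 in the authors' deposited table, and SIGLEC16 in the table of gene names, had 5.25, 7.55 and 4.38 CPM in WT and 25.6, 23.1 and 20.7 CPM in UA. It rose by 2.02 on the log2 scale (SE 0.27, edgeR adjusted p = 6.96e-05). In human these are a near-identical inhibitory and activating pair, so its role is not assigned.

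SIGLEC10, an ITIM receptor for CD24 on B cells and macrophages, had 2.74, 2.10 and 3.45 CPM in WT and 8.02, 6.83 and 8.86 CPM in UA, a log2 fold change of 1.51 (edgeR adjusted p = 0.00293). SIGLEC12 had 0.365, 0 and 0.421 CPM in WT and 2.87, 4.90 and 4.14 CPM in UA, a log2 fold change of 3.78 (edgeR adjusted p = 0.00131). The SIGLEC6 row named by its Ensembl ID had 2.44 ± 0.801 CPM in WT and 4.02 ± 1.26 in UA (SD, n = 3 each) and was not called (log2 fold change 0.72, edgeR adjusted p = 0.198). The other SIGLEC6 row did not pass the filter, and its totals were 2 counts in WT and 44 in UA, 27.3 times higher after scaling (95% exact interval 7.12 to 233). SIGLEC15, a TYROBP-coupled receptor of osteoclasts, had 0 counts in WT and 12 in UA. No Siglec among the members was lower at an unadjusted edgeR p under 0.05, and DESeq2 and limma-voom called 0 of them lower as well.

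**Figure D4:**
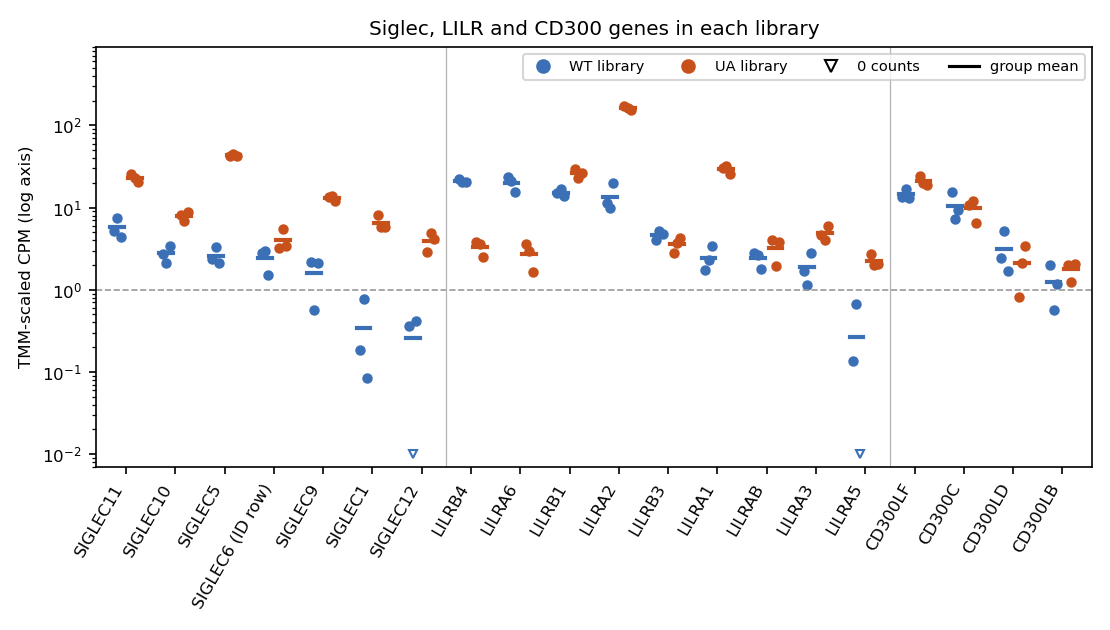
TMM-scaled CPM, on a log axis, of the 7 Siglec rows, 9 LILRs and 4 CD300 genes tested in each WT (blue) and UA (orange) library, with families separated by grey lines; short lines are group means, open triangles are libraries with 0 counts and the dashed line is 1 CPM. Every Siglec lies higher in UA, LILRA1 and LILRA2 lie higher and LILRA6 and LILRB4 lower in UA, and the CD300 genes overlap except CD300LF.

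The LILRs split, and the largest changes were in activating members. LILRA2 (an FCER1G-coupled receptor that senses immunoglobulin cut by microbial proteases, on chromosome 19 from 49878815 to 49884508) had 11.3, 9.85 and 19.8 CPM in WT and 171, 165 and 155 CPM in UA. Its log2 fold change was 3.59 (SE 0.26, adjusted p = 1.41e-06 by edgeR). LILRA1 (an activating receptor for MHC class I, on chromosome 19 from 49890392 to 49897246) had 1.74, 2.29 and 3.37 CPM in WT and 30.1, 31.8 and 25.8 CPM in UA, and its log2 fold change was 3.59 as well (SE 0.30, adjusted p = 2.97e-06 by edgeR). LILRA5, an activating receptor of monocytes and neutrophils, had 0.137, 0.669 and 0 CPM in WT and 2.71, 2.02 and 2.07 CPM in UA. Its log2 fold change was 3.17 (edgeR adjusted p = 0.00982), and 4.62 without WT replicate 2.

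LILRA6, an activating receptor, moved against these. It lies on chromosome 19 from 49979917 to 49982745 and had 23.8, 20.8 and 15.5 CPM in WT and 3.63, 2.98 and 1.62 CPM in UA, for a log2 fold change of -2.81 (SE 0.33, adjusted p = 3.04e-05 by edgeR). LILRB4 (an ITIM receptor of monocytes and dendritic cells that binds APOE, on chromosome 19 from 49949855 to 49954515) had 22.0, 20.7 and 20.5 CPM in WT and 3.79, 3.56 and 2.51 CPM in UA. It fell by 2.65 on the log2 scale (SE 0.26, edgeR adjusted p = 8.95e-06), and the groups were far apart. LILRB1 (the broad ITIM receptor for MHC class I) had 14.9, 16.9 and 13.9 CPM in WT and 29.5, 22.6 and 26.4 CPM in UA, with a log2 fold change of 0.78 (SE 0.21, adjusted p = 0.0073 by edgeR). The LILRB1 call was lost without UA replicate 1 (log2 fold change 0.69, adjusted p = 0.0503, in a range of 0.00295 to 0.131).

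The row named LILRA3, in human a soluble member, had 1.87 ± 0.831 CPM in WT and 4.85 ± 0.958 in UA (SD, n = 3 each; log2 fold change 1.36, edgeR adjusted p = 0.0246). Its call was lost without WT replicate 2 (log2 fold change 1.12) and without UA replicate 1 or 3 (1.4 and 1.2), with adjusted p of 0.0568, 0.0688 and 0.0968 in a range of 0.0102 to 0.248. The authors' deposited table places that row on chromosome 20, while it places LILRA1, LILRA2, LILRA6, LILRB1, LILRB3 and LILRB4 on chromosome 19, so the name is uncertain. Without UA replicate 1, 3 LILRs were called higher in place of 5. LILRB3, an ITIM receptor of granulocytes and monocytes, had 4.02, 5.26 and 4.72 CPM in WT and 2.82, 3.75 and 4.28 CPM in UA and was not called (log2 fold change -0.38, edgeR adjusted p = 0.401). LILRAB, a macaque LILR, was not called either (log2 fold change 0.42, edgeR adjusted p = 0.462). LILRB5, an ITIM receptor, did not pass the filter, with 36 counts in WT and 19 in UA. LILR genes are close copies of each other, so reads could be assigned to the wrong member, and each LILR value carries that uncertainty.

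None of the CD300 genes was called. CD300LF (an ITIM receptor for lipids, on chromosome 16 from 68329045 to 68348449) had 13.3, 16.8 and 13.1 CPM in WT and 24.2, 19.7 and 18.8 CPM in UA. Its groups did not overlap, but it was not called (log2 fold change 0.54, SE 0.23, edgeR adjusted p = 0.0535). Without WT replicate 2 it was called, at 0.65 and an adjusted p of 0.0362, in a range of 0.0241 to 0.293. CD300C, an activating receptor, had 15.3, 7.17 and 9.26 CPM in WT and 10.7, 12.1 and 6.50 CPM in UA, with a log2 fold change of -0.11 whose sign turned under library size alone. CD300LD and CD300LB, activating members, had log2 fold changes of -0.61 and 0.46 with standard errors of 0.65 and 0.63, so differences of that size were not detectable. CD300E had 3 counts and CD300LG 7, all in UA. With edgeR 1 CD300 gene was higher and 0 lower at an unadjusted p under 0.05, and DESeq2 called 0 while limma-voom called 1 higher.

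Activating and inhibitory members were found both among those that rose and among those that fell. Of 13 activating members tested, 4 were higher, 5 lower and 4 not called, with a median log2 fold change of -0.61. Of 11 inhibitory members tested, 6 were higher, 2 lower and 3 not called, with a median of 0.78. The SIGLEC5 row is among the inhibitory members by its name only. Within C-type lectins 1 of 6 activating members was higher and 4 were lower, whereas within LILRs 3 of 4 activating members were higher and 1 was lower. Of these, CLEC4C and LILRA5 were under 1 CPM in WT, and CLEC4D was under 1 CPM in UA. Beside all these counts, 66% of all genes tested were called, 34.6% higher and 31.4% lower. The difference between these sets was not tested. By position, CLEC4E, CLEC4D, CLEC6A and CLEC4A follow each other among the family's genes on chromosome 11 of the RefSeq assembly T2T-MMU8v2.0. All 4 of these had every UA library below every WT library, beside 34% of all genes. Of the 4, 3 were called lower, beside 31.4% of all genes. This run was named with its values known, so its shared direction is no test of position. CLEC4E, like CLEC4D, was under 1 CPM in UA. Among the family's other chromosome 11 genes, CLEC2D, which comes before CLEC4E, and CLEC7A were called lower. CLEC12A, CLEC1A and CLEC4C on that chromosome were called higher. LILRA2 and LILRA1 are likewise neighbours on chromosome 19 of that assembly, followed by LILRB1 and LILRB4, which moved in opposite directions.

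The signalling partners of these receptors also went both ways. Of 22 adaptors and kinases tested, 8 rose, 3 fell and 11 were not called, and their median log2 fold change was 0.19 beside 0.12 for all genes. Beside these counts and those of the lists below, 66% of all genes tested were called, 34.6% higher and 31.4% lower. TYROBP, the adaptor of CLEC5A and several CD300 and Siglec members, fell from 47.2 ± 6.0 to 19.1 ± 0.201 CPM (SD, n = 3 each; log2 fold change -1.31, edgeR adjusted p = 0.000125). FCER1G, the adaptor of CLEC6A, CLEC4C and LILRA2, had 45.9 ± 12.8 CPM in WT and 55.7 ± 4.98 in UA (SD, n = 3 each) and was not called (log2 fold change 0.28, edgeR adjusted p = 0.274). The kinase SYK and the scaffold CARD9 had log2 fold changes of 0.23 and 0.09 (edgeR adjusted p = 0.156 and 0.756). SYK, FCER1G and CARD9 were named after their values were seen. BLNK, an adaptor of B cells and macrophages, rose by 4.13, the kinase BTK had a log2 fold change of -1.29, and PIK3CD and VAV3 rose by 1.32 and 1.08.

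Of 9 genes tested for phosphatases and other inhibitory partners of ITIMs, 4 rose, 3 fell and 2 were not called (median log2 fold change 0.43). PTPN6 (SHP-1) and the docking proteins DOK1 and DOK2 fell, PTPN6 from 371 ± 26.5 to 199 ± 4.30 CPM (SD, n = 3 each; log2 fold change -0.90, edgeR adjusted p = 0.000161). INPPL1 (SHIP-2), CBL and DOK3 rose by 3.76, 3.55 and 2.35 on the log2 scale. INPP5D (SHIP-1), the lipid phosphatase named above, rose by 1.86 (edgeR adjusted p = 3.82e-05). DOK1 and PTPN6 were named after their values were seen.

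Genes for the ligands also went both ways, where 66% of all genes tested were called. Of 18 tested genes of sialic acid synthesis, transfer and removal, 8 rose, 5 fell and 5 were not called (median log2 fold change 0.54). CMAS, which makes the activated sugar that sialyltransferases use, fell from 484 ± 148 to 101 ± 2.59 CPM (SD, n = 3 each; log2 fold change -2.27, edgeR adjusted p = 6.01e-06). ST8SIA1, the ganglioside GD3 synthase, had a log2 fold change of -4.87, while the esterase SIAE, the sialidase NEU3 and the transferase ST3GAL1 rose by 2.44, 2.12 and 1.29. Of 18 tested genes for proteins that bind these receptors or carry their sugars, 15 rose and 3 fell (median log2 fold change 1.38). ANGPTL2, a ligand of LILRB family members, rose by 5.78 and HSPG2, the matrix proteoglycan perlecan, by 4.39. MMRN2, the endothelial ligand of CLEC14A and CD93, had 0 counts in WT and 12.1 ± 2.21 CPM in UA. VCAN, versican, rose by 2.31, and LGALS3, galectin-3, had a log2 fold change of -1.54.

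Relatives outside the symbol rule also split, where 66% of all genes tested were called. CD33 (Siglec-3, a myeloid ITIM receptor) rose from 16.5 ± 3.49 to 149 ± 6.88 CPM (SD, n = 3 each; log2 fold change 3.17, edgeR adjusted p = 5.86e-07). MAG, also a Siglec, was called lower, with a log2 fold change of -1.45 (edgeR adjusted p = 0.0328). CD22, the B cell Siglec, was not called (-0.48, edgeR adjusted p = 0.256). Of 15 other receptors with a lectin fold, 8 rose, 6 were not called and 1 fell, CD207 (langerin) being the 1 that fell, with a log2 fold change of -9.80 on 3 counts in UA. SELE, a selectin of endothelium, rose from 1 count over the WT libraries to 1543 over the UA libraries, and CD302 and CD93 rose by 2.71 and 3.19 on the log2 scale. Of 20 other paired receptors of leukocytes, 7 rose, 5 fell and 8 were not called. TREM1, FCMR, FCGR3 and PECAM1 rose by 3.51, 4.82, 4.75 and 2.82 on the log2 scale, while CD200R1 had a log2 fold change of -2.54.

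**Figure D5:**
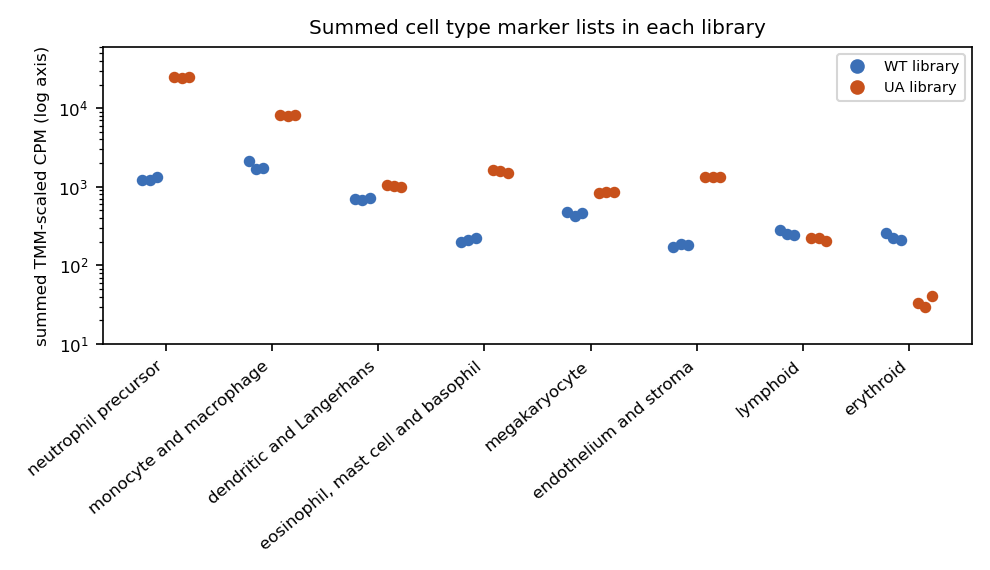
Summed TMM-scaled CPM, on a log axis, of the 8 lists of cell type markers in each WT (blue) and UA (orange) library. The UA libraries lie lower for the lymphoid and erythroid lists and higher for all other lists. Without each list's most abundant gene, the monocyte and macrophage sum is lower in UA, the lymphoid sum higher, and the erythroid sums overlap. CD14 makes up most of that monocyte and macrophage sum in WT.

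Markers of the cell types that carry these receptors also differed between the groups, and their part in the results was not tested. Beside the counts of markers here and below, 66% of all genes tested were called, 34.6% higher and 31.4% lower. Neutrophil precursor markers rose in 7 of 8 tested and fell in none, in the libraries where SIGLEC5, SIGLEC9 and CLEC12A were high. LILRB3, also a receptor of granulocytes and monocytes, was not called, and CLEC5A, CLEC4D and CLEC7A were lower in the same libraries. At an unadjusted edgeR p under 0.05 no neutrophil precursor marker was lower, and CAMP alone of them was not called. Monocyte and macrophage markers rose in 8 of 11 and fell in 1, CD14, in the libraries where SIGLEC1 and LILRA2 were high and LILRB4 low. CD14 had 1147 CPM in WT and 21.7 CPM in UA on average (log2 fold change -5.73). Of 10 dendritic and Langerhans markers tested, 4 rose and 4 fell, with sums of 992 to 1055 CPM in UA and 683 to 720 CPM in WT. Those that fell were CD207, CD1B, LAMP3 and BATF3, with log2 fold changes of -9.80, -4.99, -4.61 and -4.50. Those that rose were IRF4, FLT3, IRF8 and TCF4, with log2 fold changes of 2.49, 2.32, 2.13 and 0.74, and CD1C and CCR7 were not called. These stand beside lower CLEC4A and CLEC6A and higher CLEC4C. CAMP, LAMP3, FLT3, TCF4, CD1C and CCR7 were named after their values were seen. Of 11 endothelium and stroma markers tested, 10 rose and 1 fell, DCN (log2 fold change -2.38). The sums were 1321 to 1345 CPM in UA and 169 to 186 CPM in WT, beside CLEC4G and CLEC1A. Stromal genes made up much of both sums. DCN averaged 113 CPM in WT, and COL1A1 and COL1A2 averaged 319 and 560 CPM in UA.

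Of 7 eosinophil, mast cell and basophil markers tested, 5 rose and 1 fell, with sums of 1501 to 1618 CPM in UA and 198 to 224 CPM in WT, and IL5RA was at 0 in WT. Of 8 megakaryocyte markers tested, 5 rose and 1 fell, TUBB1, with sums of 841 to 859 CPM in UA and 425 to 473 CPM in WT. Without TUBB1 the megakaryocyte sums were 635 to 661 CPM in UA and 13.5 to 16.9 CPM in WT. Of 7 lymphoid markers tested, 4 rose and 3 fell, with sums of 203 to 226 CPM in UA and 245 to 285 CPM in WT. CD3E and KLRD1 did not pass the filter, with 0 counts each in WT and 7 and 1 in UA. Without GZMB the lymphoid sums turned, to 198 to 222 CPM in UA and 135 to 154 CPM in WT. Of 4 erythroid markers tested, 2 rose and 2 fell, with sums of 29.9 to 41.2 CPM in UA and 209 to 259 CPM in WT. Without RHAG the erythroid sums overlapped, at 19.3 to 26.0 CPM in UA and 12 to 22.7 CPM in WT.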

How the data were processed

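RNA of each colony was extracted, amplified with the SMART-Seq V4 kit and made into Nextera XT libraries, per the labels' protocols, a method that marks neither strand nor molecule. Mmul_8.0.1 and bcl2fastq stand in the submitters' processing notes, and which aligner and counter were used was not given in the sources used here. Raw counts per gene were deposited. They also deposited a table of a comparison that is not stated, holding, per the file headers, a log2 fold change, a mean signal in normalized counts and positions without a named build. Its symbols and positions were used here, and its measurements appear only in the closing section. Of the 45 members, 10 were named by symbol in the count table, 22 took their symbol from the deposited table and 13 from a table of gene names. RefSeq symbols of these families that no row carried, among them CD300A, CLEC2B, CLEC14A and SIGLEC14, were not analysed here.

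Counts were fitted with edgeR 4.0.16 (R 4.3.3, quasi-likelihood F-test, robust) on all 6 libraries, with group as the only term, filterByExpr at a minimum count of 10 and total of 15, TMM factors of 0.86 to 1.07 and Benjamini-Hochberg adjustment over 13768 genes. Adjusted p under 0.05 was called. CPM uses TMM-scaled library sizes. Standard errors are the log2 fold change over the square root of F. Alternatives used DESeq2 1.42.0 and limma 3.58.1. The fit was tested on simulated data. Sums of marker lists were also taken without the most abundant gene, a step chosen after seeing the data. Members with at least 5 CPM in a group or a called log2 fold change beyond 3 are given by library. Of each fixed list, up to 5 genes were named: the highest and lowest called fold change, then the smallest p; 1 gene that this rule names is not reported here. Promoter and protein sequences were not used here. Members and lists were chosen with earlier results of these data known.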

Additional observations from a re-analysis of the deposited data

Results flagged for a closer look

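A pair of members had a signal in the authors' deposited table while the 6 colony libraries held 3 counts or fewer of them. CLEC4F had a mean of 25.8 normalized counts in the authors' deposited table and 0 counts in all 6 libraries. CLEC2L had a mean of 18.1 normalized counts in the authors' deposited table and 2 counts in the 6 libraries.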

How the results depend on the processing

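Of 24 members called, 17 were called in every alternative that tested them and 7 were lost in at least 1. All 7 were lost with the 3 UA libraries summed, which leaves the spread to the WT libraries: CLEC7A, CLEC1A, CLEC2D, LILRA3, LILRA5, LILRB1 and SIGLEC10. With 1 library left out, members called higher ranged from 14 to 18 and lower from 7 to 8, C-type lectins higher from 4 to 6 and lower from 5 to 6, LILRs higher from 3 to 5, Siglecs higher from 6 to 7 and CD300 genes higher from 0 to 1. Members at 1 CPM or more ranged from 35 to 36 in either group, 27 to 29 in WT and 32 to 33 in UA. The stricter filter of 5 CPM in 3 libraries called 3 C-type lectins and 3 LILRs higher, and the summed UA libraries gave 2 LILRs higher. A total of 1 CD300 gene, CD300LF, was called higher with library size alone, upper-quartile factors, the stricter filter, limma-voom or an adjusted p under 0.1. A threshold of 5 CPM left 21 members in either group, 15 in WT and 16 in UA. Directions turned for CD300C (0.0743 with library size alone, 0.19 with limma-voom, 0.27 without WT replicate 1, 0.09 without UA replicate 3, and -0.34 without WT replicate 2, the lowest with 1 library left out) and for CLEC18A (0.12 with library size alone, 0.0301 with upper-quartile factors, 0.20 with UA summed, 0.21 and 0.00045 without WT replicate 1 or 3, 0.42 without UA replicate 3, and -0.32 without WT replicate 2, the lowest with 1 library left out). The causes were not tested. Library size alone moved the median log2 fold change of all genes from 0.12 to 0.28. With the replicate number as a block, 16 members were higher and 7 lower, CLEC2D being lost (log2 fold change -1.60, adjusted p = 0.101), but same-numbered libraries correlated at only 0.0129 to 0.022, so the numbers do not pair the libraries, although each library correlated best with its own number, a hint from the data and not the design. The shallowest library limits members under 1 CPM.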

Other observations

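The authors' deposited table lists 31 of the 45 members, 27 with a negative and 4 with a positive log2 fold change. The 4 are CLEC12A, SIGLEC6, CLEC4A and CLEC4G, at 5.16, 3.94, 1.55 and 1.16 in the authors' deposited table. CLEC4A was lower in the UA-labelled colonies here, and SIGLEC5, LILRA1 and LILRA2, which were higher here, have log2 fold changes of -1.42, -3.55 and -2.75 in the authors' deposited table. Of 20091 rows of that table whose ID is in the count table, 3471 had 0 counts in all 6 libraries. The comparison behind it is not stated, so the values stand side by side only.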
